A study of Mus musculus with 12 samples.

Results

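Vimentin, filamin C and zyxin are cytoskeletal proteins of 3 kinds, and their messenger RNAs were followed here in BV2 cells, an immortalised mouse microglial line. The values come from 3 of the 57010 rows of each deposited count table, chosen by gene identifier: ENSMUSG00000026728 (labelled Vim), ENSMUSG00000068699 (labelled Flnc) and ENSMUSG00000101268 (labelled 2010310C07Rik). The last is called the Zyx row below, because its reads were estimated to come from Zyx. The choice was made with counts of these libraries known, so the levels are a description, and p-values for these rows are not independent evidence.

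BV2 cultures received extracellular vesicles (EVs), membrane particles shed by cells, for 24 h. All vesicles came from other BV2 cells, and the 4 groups of 3 libraries are named by the treatment of the donor cells as the titles give it: control_EV, LPS_EV (lipopolysaccharide, a bacterial inflammatory stimulus), TGFB_EV (transforming growth factor beta) and IL10_EV (interleukin 10). Every group received vesicles, and no group received a stimulus without them, so the comparisons are between kinds of vesicle. Doses of the donor treatments and separate cultures for the replicates are not given in the labels, so p-values cover only the spread between these libraries, part of which may come from their handling.

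Vimentin is the main intermediate filament protein of mesenchymal and myeloid cells, where it gives mechanical resilience and takes part in migration. Filamin C crosslinks actin filaments and is best known from the Z-discs and membrane attachment sites of striated muscle. Zyxin is a LIM-domain protein of focal adhesions and stress fibres that recruits Ena/VASP proteins to actin under tension.

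For most placed rows of at least 5 CPM, the label was estimated not to sit on the gene whose reads the row holds. The position of each row was estimated from its neighbours, without group labels and without the counts of these 3 rows. In GRCm38 coordinates, Vim spans chr2:13573927-13582826, and its row belonged to a stretch of 333 rows whose estimated displacement was 4600 bp. After that displacement its exons shared 753 bp with Vim, 15.9% of the exon length of the gene. Flnc spans chr6:29433256-29461883, and its row, in a stretch of 330 rows displaced by 400 bp, shared 3667 bp with Flnc, 39.0% of the exon length. The antisense gene 2010310C07Rik lies at chr6:42370671-42381215 and its exons share 0 bp with Zyx. Its row sat in a stretch of 2492 rows displaced by -23000 bp, and there it shared 1727 bp with Zyx (chr6:42349630-42360213), 32.0% of the Zyx exons and 72.0% of the row's own. The estimate for the Zyx row scored 136.78 above no displacement. For the Vim and Flnc rows the score lay only 8.61 and 5.52 above no displacement, and without displacement these rows would cover their own genes whole. So the gene is the same either way for Vim and Flnc, while the part of it that was counted is less sure. The row that carries the Zyx label itself held 0 counts in all 12 libraries.

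One coding exon of Flnc and one of Zyx, each wholly inside the displaced exons of its row, are printed here to show what these rows are estimated to have counted. Each is the longest such exon of at most 300 bases in a GENCODE M21 transcript, read from GRCm38 on the plus strand, the strand of both genes; no letter is in capitals, since no base is singled out.
Flnc exon 24 of 48, chr6:29449236-29449396: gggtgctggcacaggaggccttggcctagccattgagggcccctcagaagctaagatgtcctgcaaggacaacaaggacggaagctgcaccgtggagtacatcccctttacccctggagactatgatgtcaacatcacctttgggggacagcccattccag
Zyx exon 7 of 9, chr6:42356432-42356610: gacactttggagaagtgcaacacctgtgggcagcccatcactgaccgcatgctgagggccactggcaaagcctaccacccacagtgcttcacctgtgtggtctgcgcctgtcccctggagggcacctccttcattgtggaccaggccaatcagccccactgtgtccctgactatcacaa
The GC content was 57.1% in the Flnc exon of 161 bases and 59.2% in the Zyx exon of 179 bases.

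**Figure D1:**
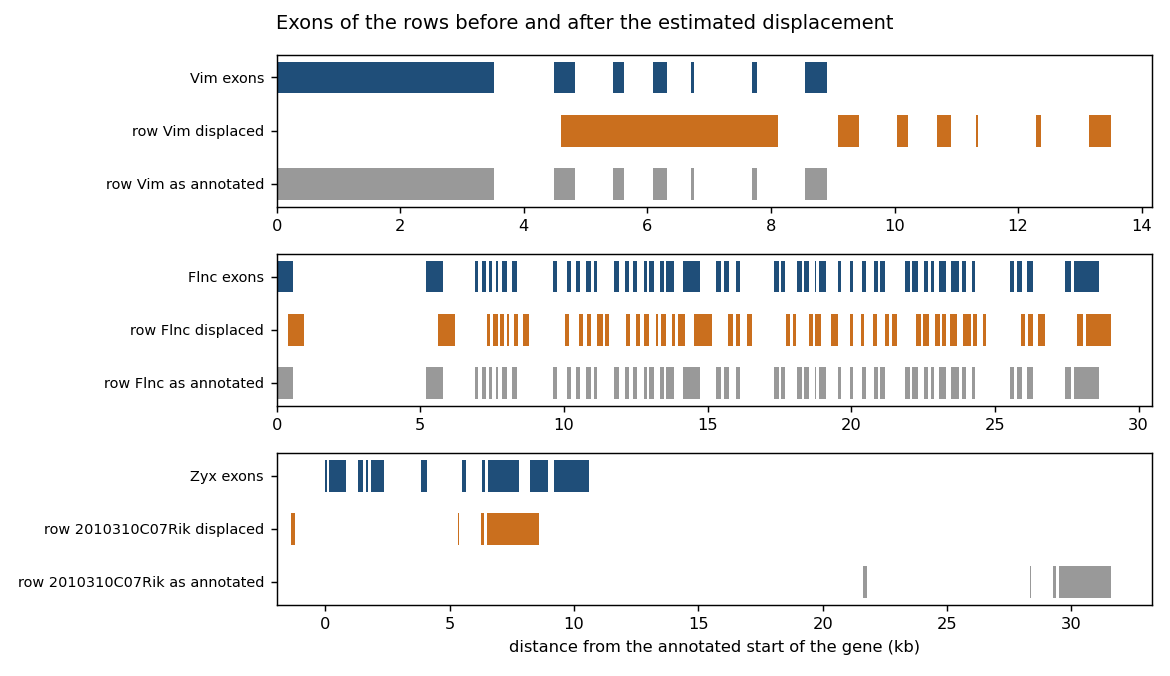
Exons of Vim, Flnc and Zyx (blue), exons of the 3 rows after the estimated displacement (orange) and where their labels put them (grey), against the distance from the annotated start of each gene in kb. The row labelled 2010310C07Rik lies beyond the end of Zyx as annotated; once displaced by -23000 bp it covers parts of its later exons but not the last, with its first exons before the gene, while the Vim and Flnc rows overlap their own genes in both positions.

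The libraries held from 10497757 to 13647007 counts. Levels are CPM, counts expressed per equal library size after TMM scaling (the trimmed mean of M-values), and 3 counts are worth 0.22 to 0.286 CPM. A pair of libraries stood apart from their groups. TGFB_EV replicate 3 correlated better on average with the control_EV libraries (Pearson r 0.9938 over all rows of at least 5 CPM) than with its own group (0.9892). All 3 IL10_EV libraries also correlated better with control_EV than with each other; among them replicate 2 had the lowest r to its group (0.9846, with 0.9899 and 0.9882 for the others), and its counts departed from theirs with a chi-square of 18.7 and 24.8 per degree of freedom, where the other two gave 5.92. Results for these groups are therefore also given without them. Of 16 microglia and macrophage markers, 5 had a row estimated to hold them (Aif1, Csf1r, Ptprc, Spi1 and Lyz2), all at 5 CPM or more. Their summed level was 2998 to 3157 CPM in control_EV, 3042 to 3798 in LPS_EV, 2506 to 2891 in TGFB_EV and 3078 to 4281 in IL10_EV. Muscle makes filamin C, and fibroblasts and astrocytes make vimentin. Rows estimated to hold markers of those cells were at or near 0 here. A low row does not show that its gene was silent, since the row estimated to hold beta-actin (Actb) had only 4.01 CPM. Of 5 astrocyte markers the 3 with a row (Gfap, Slc1a3 and Aldh1l1) had no count. Nor had Col1a2 and Dcn of fibroblasts, or Pdgfrb in the row labelled Arsi, although the Csf1r row also met Pdgfrb. Leaving the Csf1r row aside, 5 of 7 fibroblast and 2 of 8 muscle markers had a row. They summed to at most 0.96 and 1.44 CPM. The 2 neuronal markers and the 1 endothelial marker with a row reached at most 0.16 and 1.24 CPM.

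The Vim row was among those with the most counts: it ranked 2 of all rows by mean level, without correction for length, and took 1.5% to 2.51% of the counts of a library. The Flnc row ranked 43 and the Zyx row 658, the latter with 2395 to 3868 counts per library. Per kb of exon shared with the gene, the means over all libraries were 27836 CPM for Vim, 684 for Flnc and 155 for Zyx. These rest on the estimated overlap; per kb of the whole annotated exon length of each gene they were 4419, 267 and 49.6 CPM, in the same order.

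In the Vim row, control_EV replicates 1, 2 and 3 had 21292, 25557 and 20124 CPM, a mean of 22324 ± 2860 (SD, n = 3). LPS_EV had 22139, 21119 and 21386 CPM, or 21548 ± 529 (SD, n = 3). TGFB_EV had 18151, 14728 and 24280 CPM, or 19053 ± 4840 (SD, n = 3). The first pair of TGFB_EV libraries lay below every control library, while replicate 3 lay above 2 of the 3, so the groups overlapped. IL10_EV had 19625, 25542 and 17580 CPM, or 20916 ± 4135 (SD, n = 3), with replicate 2 close to the highest control. The order of the means was control_EV, LPS_EV, IL10_EV and TGFB_EV, and every pair of groups overlapped. The coefficient of variation within a group was 2.46% in LPS_EV, 12.8% in control_EV, 19.8% in IL10_EV and 25.4% in TGFB_EV, so that the spread sits in the groups with a library that stood apart.

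In the Flnc row, the control_EV libraries had 2509, 2580 and 2630 CPM, a mean of 2573 ± 60.5 (SD, n = 3). LPS_EV had 2362, 2283 and 2240 CPM, or 2295 ± 62.0 (SD, n = 3), with all 3 below all control libraries. TGFB_EV had 2983, 2912 and 2706 CPM, or 2867 ± 144 (SD, n = 3), with all 3 above every library of the other groups. That includes replicate 3, the library nearest to control. IL10_EV had 2414, 2021 and 2455 CPM, or 2297 ± 240 (SD, n = 3), below all control libraries, with replicate 2 the lowest of the 12. The order of the means was TGFB_EV, control_EV, IL10_EV and LPS_EV; the last pair overlapped and their means were 2297 and 2295 CPM. From its lowest to its highest library Flnc varied 1.48-fold, less than Vim (1.74-fold) or Zyx (1.69-fold).

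In the Zyx row, the control_EV libraries had 260, 313 and 302 CPM, a mean of 292 ± 27.8 (SD, n = 3). LPS_EV had 228, 224 and 214 CPM, or 222 ± 7.17 (SD, n = 3), all below the lowest control. TGFB_EV had 308, 331 and 289 CPM, or 309 ± 21 (SD, n = 3), within and above the control range. IL10_EV had 260, 196 and 282 CPM, or 246 ± 44.9 (SD, n = 3): replicate 2 was the lowest of the 12 libraries, replicate 1 stood at the lower end of the control range and replicate 3 within it. The order of the means was TGFB_EV, control_EV, IL10_EV and LPS_EV, the order seen for Flnc, and the neighbours TGFB_EV and control_EV, control_EV and IL10_EV, and IL10_EV and LPS_EV each overlapped. A further row, labelled Epha1, met Zyx over a short stretch; it held 11 CPM on average and had a log2 difference of -0.29 between LPS_EV and control_EV (adjusted p = 0.496).

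**Figure D2:**
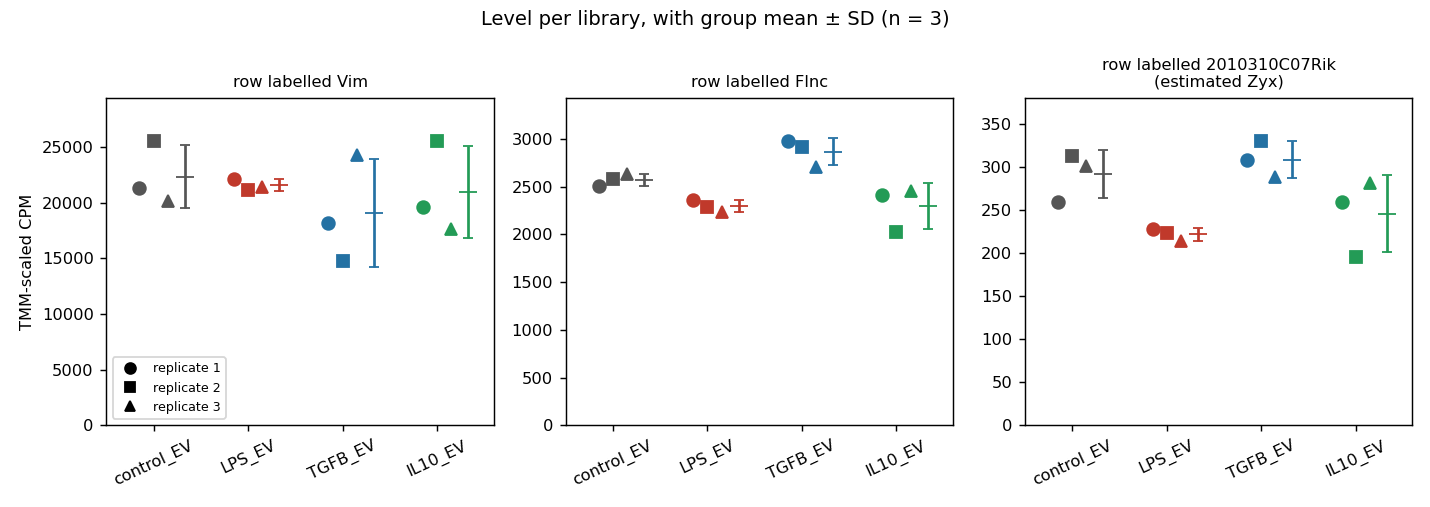
TMM-scaled CPM of the 3 rows in each of the 12 libraries (symbols mark the replicate number), with the mean and SD of each group of 3 beside its points, on linear axes from 0. TGFB_EV replicate 3 is the highest Vim library of its group and the lowest Flnc and Zyx library of it, and IL10_EV replicate 2 is the highest for Vim and the lowest for Flnc and Zyx in its group.

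Vesicles from LPS-treated cells were set against control vesicles to see how the recipient cells differed after vesicles from inflamed donors. Zyx was lower: the log2 difference was -0.39 (SE 0.06), 0.762 of the control level, with an adjusted p of 0.00145 by edgeR's quasi-likelihood test over 10523 rows. Its p ranked 12 among all rows. In bulk RNA, fewer cells that express a gene and less of its RNA per cell cannot be told apart. The 5 microglial markers had a median log2 difference of -0.04 in this comparison and none was called. By this test 0.817% of all rows were called, and 0.276% were called lower, which is the background for 1 call among 3 rows. DESeq2 called 129 rows, 39 higher and 90 lower, where edgeR called 57 higher and 29 lower. Flnc had a log2 difference of -0.16 (SE 0.04) and an adjusted p of 0.0858, which missed the threshold of 0.05, although its groups did not overlap; 8.21% of all rows were lower in LPS_EV with no overlap. The Flnc call depended on the method: DESeq2 gave -0.17 with an adjusted p of 0.0015, and edgeR without a filter on low counts 0.035. Vim had a log2 difference of -0.05 (SE 0.06, adjusted p = 0.822), and an interval of 2 SE to either side ran from -0.16 to 0.06. The Zyx row was called lower whichever of the 6 libraries was left out, with log2 differences from -0.47 to -0.34 and adjusted p from 0.000455 to 0.0342. In a fit of all 12 libraries, where the spread of the TGFB_EV and IL10_EV groups enters, the Zyx difference was the same (-0.39) but the adjusted p was 0.52, and no row of the table was called.

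For vesicles from TGF-beta-treated cells, none of the 3 rows was called, where 0.038% of 10524 rows were. Flnc was higher by 0.15 on the log2 scale (SE 0.05, adjusted p = 0.706) with no overlap of the groups, as in 5.35% of all rows. Zyx had a difference of 0.08 (SE 0.08, adjusted p = 0.874; 2 SE interval -0.07 to 0.23) and Vim of -0.23 (SE 0.13, adjusted p = 0.796; -0.49 to 0.03). Leaving out TGFB_EV replicate 1 or 2 put Vim at -0.20 and -0.07 and Flnc at 0.12 and 0.14, neither of them called. Those fits called 0 and 2 rows. TGFB_EV replicate 3 had been singled out for its likeness to control_EV, which by itself favours a wider difference without it. Without that library the values changed. Vim was then lower by 0.44 (log2 -0.44, adjusted p = 0.00254), Flnc was higher by 0.19 (adjusted p = 0.0134) and Zyx stood at 0.13 (adjusted p = 0.387). That fit called 3.89% of 10768 rows, 0.994% higher and 2.9% lower. With no filter on low counts, edgeR called Vim with all libraries too (-0.23, adjusted p = 4.15e-06). Its SE there was 0.04, against 0.13 in the main fit, although the TGFB_EV libraries ran from 14728 to 24280 CPM. That p therefore does not cover the spread between these libraries. DESeq2 gave -0.23 with an SE of 0.23 and did not call Vim (adjusted p = 0.9998). The microglial markers lay on the side of Vim: all 5 had lower means in TGFB_EV (median log2 difference -0.22) and none was called with all libraries, while Csf1r (the receptor for colony-stimulating factor 1) and Lyz2 (lysozyme) were called lower without replicate 3. Their part in the Vim difference was not tested.

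For vesicles from IL-10-treated cells no row of 10613 was called (0%) by edgeR; before adjustment 334 rows lay under 0.05, and DESeq2 called 1. Flnc had a log2 difference of -0.16 (SE 0.07, adjusted p = 0.9996), with groups that did not overlap, as for 4.31% of rows in that direction. Zyx differed by -0.25 (SE 0.12) and Vim by -0.09 (SE 0.12), both with an adjusted p of 0.9996. These values rest in part on replicate 2: without it the differences were -0.08 for Flnc, -0.11 for Zyx and -0.26 for Vim.

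The 3 comparisons above share their control libraries, so the values of a row in them are not independent of each other. Vesicle groups were also compared with one another in a fit of all 12 libraries, over 11267 rows, and edgeR called no row in any of these pairs (0% each). Between LPS_EV and TGFB_EV, 1442 rows lay under 0.05 before adjustment and DESeq2 called 104. Flnc was lower in LPS_EV by 0.32 (log2 -0.32, SE 0.06, adjusted p = 0.0821) and Zyx by 0.48 (log2 -0.48, SE 0.10, adjusted p = 0.0880), both with no overlap, as for 9.59% of rows. Those adjusted p fell to 0.0119 and 0.00319 when only the 6 libraries concerned were fitted, with the same differences. Without TGFB_EV replicate 3 the 12-library design gave -0.37 (adjusted p = 0.0233) and -0.53 (adjusted p = 0.0297). Without TGFB_EV replicate 1 or 2 it gave -0.29 and -0.31 for Flnc and -0.48 and -0.43 for Zyx, none of them called. Vim differed by 0.18 (SE 0.14, adjusted p = 0.63), by 0.38 without TGFB_EV replicate 3 (adjusted p = 0.107) and by 0.02 without its replicate 2.

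Between LPS_EV and IL10_EV, Flnc had a log2 difference of 0.00 (SE 0.06), with an interval of -0.13 to 0.13 at 2 SE, Zyx of -0.15 (SE 0.10, adjusted p = 0.925) and Vim of 0.04 (SE 0.14). Without IL10_EV replicate 2 they were -0.09, -0.30 and 0.20, none of them called. In this pair 634 rows lay under 0.05 before adjustment and DESeq2 called 1. Between TGFB_EV and IL10_EV, Zyx was 0.33 higher in TGFB_EV (SE 0.10, adjusted p = 0.623) with no overlap, as in 5.19% of rows, and it was 0.19 without IL10_EV replicate 2. Flnc differed there by 0.32, and by 0.23 without that library, while Vim differed by -0.13 (SE 0.14). In that pair 842 rows lay under 0.05 before adjustment and DESeq2 called 11.

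**Figure D3:**
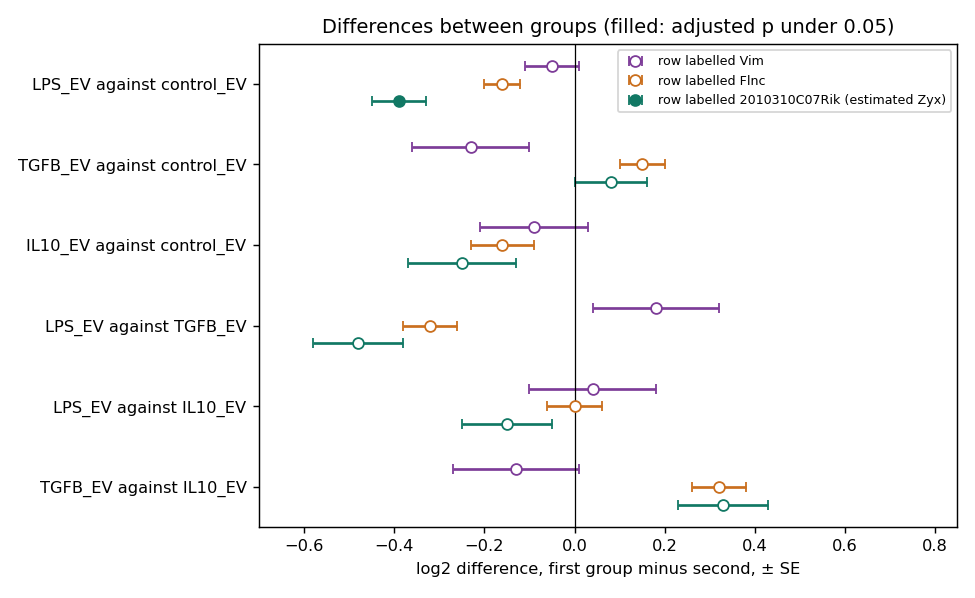
Log2 difference (first group minus second) with its SE for the 3 rows in the 6 comparisons; filled symbols have an adjusted p under 0.05 over all rows. The Zyx row in LPS_EV against control_EV, at -0.39, is the filled point, and the Flnc and Zyx rows lie on the same side of 0, or Flnc at 0.00, in all 6 comparisons.

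Flnc and Zyx varied together over the 12 libraries. On log2(CPM + 1) the Pearson r between their rows was 0.92 and Spearman's rho 0.92, given as a description over libraries that share their groups. With the group means removed r was 0.90, and without TGFB_EV replicate 3 and IL10_EV replicate 2 together it was 0.88 over 10 libraries. Among 7498 other rows of at least 5 CPM, Zyx ranked 9 by r to Flnc, and Flnc ranked 17 by r to Zyx; with the group means removed the ranks were 126 and 49. The ratio of the Flnc row to the Zyx row lay between 8.24 and 10.5 in all libraries. It was 8.24 to 9.64 in control_EV and 10.2 to 10.5 in LPS_EV. The ratio of Vim to Flnc ran from 5.06 in TGFB_EV replicate 2 to 12.6 in IL10_EV replicate 2. Vim tended to go the other way, with r of -0.54 to Flnc and -0.48 to Zyx, and of -0.71 and -0.61 with the group means removed. Spearman's rho was weaker, at -0.40 to Flnc and -0.38 to Zyx. Against control_EV, however, Vim, Flnc and Zyx all had lower means in LPS_EV and in IL10_EV. Over the 5 microglial markers r to Vim ran from 0.10 (Spi1) to 0.97 (Csf1r), r to Flnc from -0.93 (Lyz2) to 0.16 (Spi1) and r to Zyx from -0.86 (Lyz2) to 0.28 (Spi1). Their part in these relations was not tested.

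**Figure D4:**
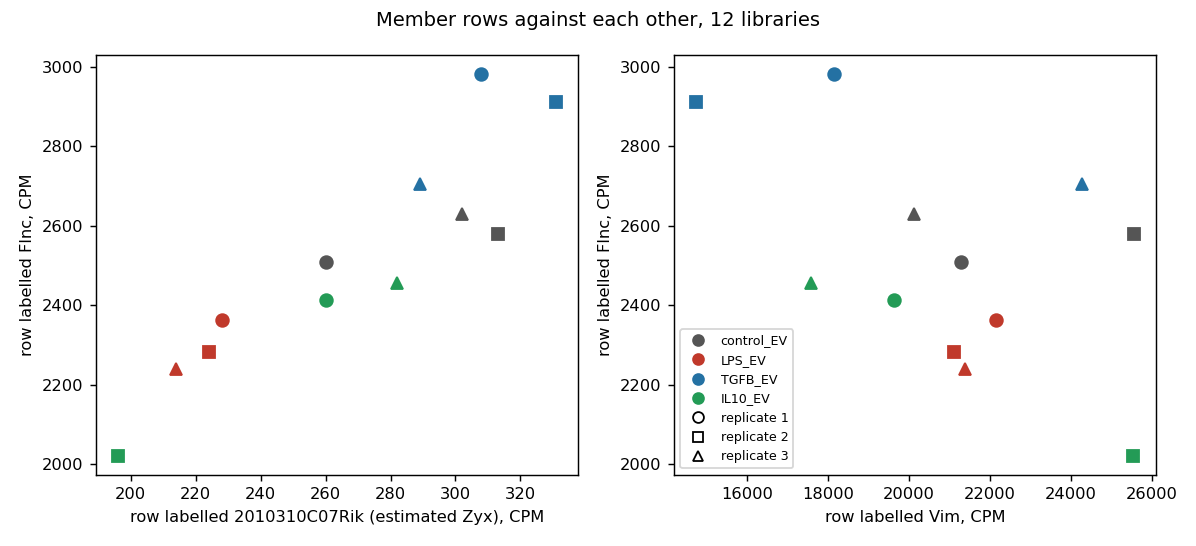
Flnc row against the Zyx row (left) and against the Vim row (right), in TMM-scaled CPM, 1 point per library, coloured by group with the symbol marking the replicate number; the axes do not start at 0. Flnc and Zyx rise together over all 4 groups (r = 0.92 on the log2 scale), and Vim and Flnc tend to run in opposite directions (r = -0.54, Spearman's rho -0.40).

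The rows whose pattern was most like Vim over the 12 libraries were those labelled C9orf72 (its own gene; r 0.99), Fars2 (estimated to hold F13a1; 0.98), Phf23 (Acap1; 0.98), Tnks (Ppp1r3b; 0.98) and Gm15466 (Tpd52; 0.97). F13a1 encodes the A chain of coagulation factor XIII, a transglutaminase made by macrophages. For Flnc they were Tradd (Dpep2; 0.95), Col8a2 (Thrap3; 0.94), Sel1l (Sel1l and Ston2; 0.94), Cdc42bpg (Sf1; 0.93) and Rab11b (Vps52; 0.93). With the group means removed Sel1l ranked 4 by r to Flnc and the other 4 ranked 204 to 356. For Zyx they were Ywhaz (its own gene, a 14-3-3 protein; 0.96), Upf3b (its own, a factor of nonsense-mediated decay; 0.95), Igf2bp3 (Malsu1, Igf2bp3 and Gpnmb; 0.94), ENSMUSG00000120654 (without a position; 0.94) and Camk2b (Ykt6 and Camk2b; 0.94). By the same measure Ywhaz, Upf3b and ENSMUSG00000120654 ranked 11, 5 and 19 to Zyx, and Igf2bp3 and Camk2b 165 and 254, while the 5 rows named for Vim ranked 2 to 8.

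Other cytoskeletal genes were read by the gene that each row was estimated to hold, in LPS_EV against control_EV, where the median log2 difference of all rows was 0.00. Of 20 zyxin family members and partners 11 could be tested: 8 lay lower and 3 higher, and the median was -0.10. The 1 called, where 0.817% of all rows were, is the Zyx row itself. In 4 of the 11, Zyx among them, all LPS_EV libraries lay below all control libraries, as in 8.21% of all rows. Other members of this list are named after their values were seen. Vasp, an actin polymerisation factor bound by zyxin, whose row also met Opa3, had a difference of -0.22 (SE 0.05, adjusted p = 0.0577). The zyxin relative Trip6 had -0.44 (SE 0.15, adjusted p = 0.217). Tes, the tested member of this list with the highest level (524 CPM), had -0.03 (SE 0.05). The 3 that lay higher were Ajuba (0.58, SE 0.38, at 2.5 CPM), Lasp1 (0.11, SE 0.07) and Pdlim5 (0.09, SE 0.09). Among 40 actin genes and regulators, 19 could be tested, 13 lower and 6 higher, with none called and a median of -0.07. Read by label instead, 21 were tested, 11 higher and 10 lower, with a median of 0.00. The row estimated to hold Actb had only 4.01 CPM, so a row can carry few reads of its gene. Actg1, the cytoplasmic gamma-actin, had -0.26 (SE 0.07, adjusted p = 0.0858). The most abundant others were Gsn, the filament-severing gelsolin, at -0.04 and the tropomyosin Tpm3, whose row also met Ubap2l and 4933434E20Rik, at -0.13.

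Of 18 targets of the serum response factor (SRF) pathway, which answers to actin dynamics and includes Zyx, 7 could be tested. Of these, 4 lay higher and 3 lower, Zyx alone was called, and the median was 0.05. Cnn1 among them stood in a row that also met Elof1. Filip1l, which is in the filamin list too, stood in one that also met Cmss1. In the filamin list 4 of 20 could be tested (Flnc among them), with 2 lower, 2 higher, none called and a median of -0.06; Pdlim7 had -0.12 and Fblim1, a filamin-binding LIM protein, 0.01. In the integrin adhesion complex 12 of 24 were tested, 7 higher and 5 lower with none called and a median of 0.05. The most abundant, Tln1 (talin, which links integrins to actin, 4120 CPM, in a row that also met Creb3), had -0.04 (SE 0.04), the kindlin Fermt3 (with Trpt1) -0.05 and focal adhesion kinase, Ptk2, 0.10. Intermediate filament genes and linkers gave 6 of 14 with none called and a median of -0.03. Evpl among them was read from a row that also met Srp68 and Exoc7. Tubulins and their partners gave 6 of 13 with none called and a median of -0.03. In these lists the linkers Macf1 (in a row that also met Pabpc4, Bmp8a and Heyl) and Plec had 0.03 and -0.09, and Tubb5 (with Flot1) and Tuba1b (with Gm49450) had 0.14 and -0.05.

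Read by row label instead of estimated gene, the rows labelled Dst (intermediate filament linkers) and Rbfox3 (neuronal markers) were called higher in LPS_EV and no other listed row was called there. No listed gene was called in the other 5 comparisons with all libraries, by either reading. TGFB_EV replicate 3 was singled out for its likeness to control_EV, so calls without it are given as a description. Without that library, the comparison of TGFB_EV with control_EV called 0.994% of all rows higher and 2.9% lower. By estimated gene it called Vim and Plec lower among 6 intermediate filament genes, Flnc higher among 4 filamins and partners, Trip6 lower among 11 in the zyxin list and Itgav lower among 12 in the integrin list. It also called Tpm4, Gsn and Lcp1 lower among 19 in the actin list, Tpm2 among 7 in the SRF list and Tubb5 among 6 tubulins and partners. Gsn had a log2 difference of -0.74 there (adjusted p = 0.000149) and -0.35 with all libraries.

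**Figure D5:**
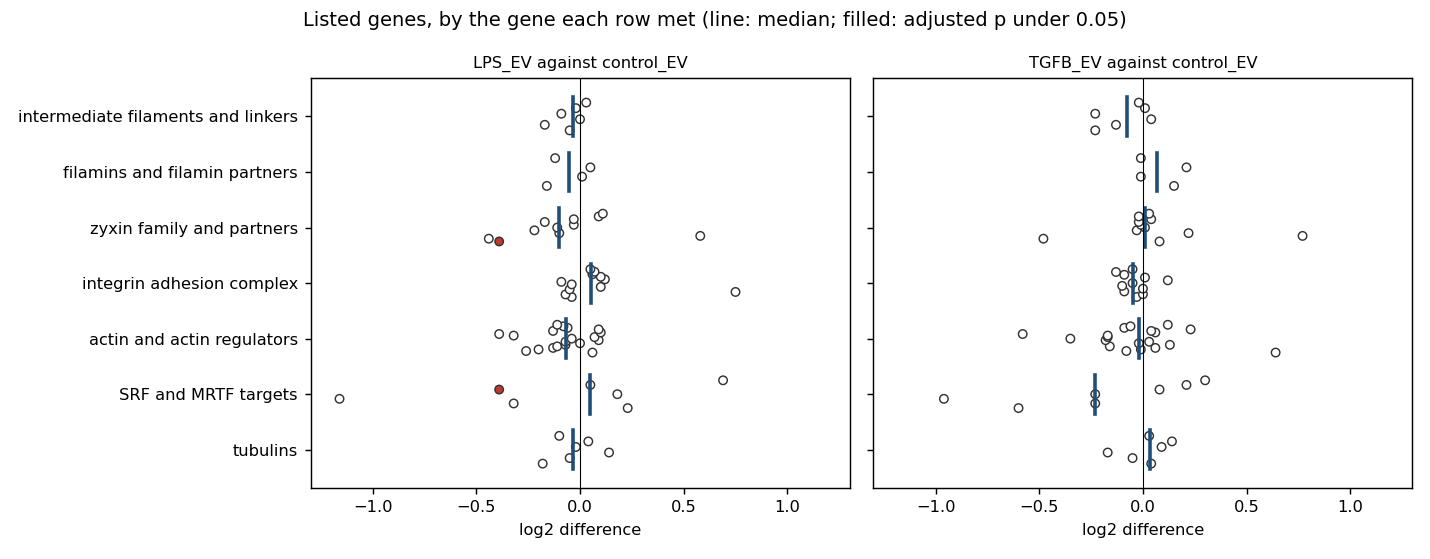
Log2 difference of each tested gene of 7 cytoskeletal lists, read by the gene its row was estimated to hold, in LPS_EV (left) and TGFB_EV (right) against control_EV; blue lines mark list medians and filled points an adjusted p under 0.05. The Zyx row at -0.39, which stands in the zyxin list and again in the SRF list, is the filled point, and no point is filled for TGFB_EV.

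The 250 bases before the RefSeq starts of the 3 genes (GRCm38.p6, plus strand) were searched on both strands for short motifs, as a description. Vim holds a TATAAA match whose first base lies 32 bases before its start, as 12.4% of 32851 such windows hold one, and Zyx holds a match to TGANTCA, the AP-1 motif, 121 bases before its start, where 6.75% of windows hold one. They are printed with the match in capitals, as matches that 1 of the 3 genes has.
Vim, chr2:13574269-13574294: ctaacagtgtTATAAAagcagcgccc
Zyx, chr6:42349697-42349723: gtgcggacagTGAGTCAgttctccagc
Neither motif was found before the Flnc starts. CCAAT was found in Vim and Flnc (33.8% of windows), GGGCGG in Flnc and Zyx (32.7%), and an NF-kB motif in Vim and Flnc (3.9%). The CArG box bound by SRF was found before no start of the 3 genes and in 1.47% of all windows.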

How the data were processed

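RNA-seq was made from 12 BV2 libraries in 4 groups of 3, grouped by sample title. Per the labels' protocols, cDNA was made with SMART-Seq v4 and libraries with Nextera XT, kits that do not mark strand, so antisense genes share reads with the genes they overlap. Raw counts were deposited as whole numbers, 57010 Ensembl gene IDs per table, and the tables share the control columns; 1 table repeats another and was not used. The submitters' processing notes name DESeq2. The aligner, counter and genome build used are not stated in the sources used here. Totals were 10497757 to 13647007 counts, and a floor of 3 counts speaks of counting error alone.

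The test was edgeR's quasi-likelihood test (version 4.0.16, R 4.3.3) after TMM scaling and filterByExpr at a count of 10, with a Benjamini-Hochberg adjusted p under 0.05 over all rows. It was run on 6 libraries for each comparison with control_EV and on all 12 for pairs of treatments. Alternatives were DESeq2 1.42.0 and its size factors, other filters and pseudocounts, a replicate block, other sets of libraries and leaving out each library. Likeness used log2(CPM + 1), over rows of at least 5 CPM.

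Row positions were estimated with GENCODE M21 as displacements constant over stretches of rows, in steps of 100 bp up to 2000 kb down and 1000 kb up. Rows with many counts on exons of 583 widely expressed genes were rewarded, counts outside exons penalised, and each change cost 15. Of 80 stretches 71 were supported (score at least 5 above displacements over 100 steps away), holding 95.1% of 50445 placed rows. Of 7046 rows of at least 5 CPM there, 94.9% met a coding exon and 18.9% their own label. The fit itself favoured overlap with coding exons in these rows, so the 94.9% does not test it. A gene was met when it shared any step with the displaced exons. Both procedures were run on simulated data. The simulated displacements were close to those fitted here, and the simulated levels followed overlap with exons. That run therefore does not test which genes the real rows hold.

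The rows and lists were chosen with earlier results of these data known. By rule, the text names the 3 rows and other rows holding their genes. It also names called list members, or otherwise the 3 of highest level, and the 5 rows most like each of the 3 rows. Vasp, Tes, Ajuba, Lasp1 and Pdlim5 were added after their values were seen, as was Trip6 in the LPS_EV comparison. So were Actb, Evpl, Cnn1 and Filip1l.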

Additional observations from a re-analysis of the deposited data

How the results depend on the processing

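Counts of called rows moved most. Without a filter on low counts edgeR called 165 rows for LPS_EV against control_EV, 111 for TGFB_EV and 22 for IL10_EV against control_EV, 340 for LPS_EV against TGFB_EV, 18 for LPS_EV against IL10_EV and 160 for TGFB_EV against IL10_EV. It then also called Vim in TGFB_EV against control_EV (log2 -0.23, adjusted p = 4.15e-06) and in LPS_EV against TGFB_EV (0.17, 0.0119), Flnc in LPS_EV against control_EV (-0.17, 0.035), LPS_EV against TGFB_EV (-0.33, 3.24e-06) and TGFB_EV against IL10_EV (0.31, 3.17e-05), and Zyx in LPS_EV against TGFB_EV (-0.49, 1.12e-07) and TGFB_EV against IL10_EV (0.32, 0.00722). DESeq2 called 129 rows for LPS_EV, 17 for TGFB_EV and 1 for IL10_EV against control_EV, and 104, 1 and 11 for the pairs of treatments in the same order. It called Flnc in LPS_EV against control_EV (-0.17, adjusted p = 0.0015), LPS_EV against TGFB_EV (-0.32, 0.00497) and TGFB_EV against IL10_EV (0.32, 0.0364), and Zyx in LPS_EV against TGFB_EV (-0.48, 0.00654). A fit of all 12 libraries called 0 rows for LPS_EV and TGFB_EV against control_EV, with Zyx at -0.39 (adjusted p = 0.52); the 6 libraries of LPS_EV against TGFB_EV alone gave 120 calls, with Flnc at -0.32 and Zyx at -0.48. For Vim in TGFB_EV against control_EV the SE was 0.04 without the filter and 0.13 with it, so the unfiltered p does not cover the spread between libraries. The causes were not tested.

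Same-numbered replicates were taken as paired only if all 3 pairs correlated over 0.1, which held in none of the 6 comparisons. The pairs had r of 0.10, 0.04 and 0.02 in LPS_EV against control_EV. In IL10_EV against control_EV they had -0.01, 0.23 and 0.27. Over the 6 comparisons 5, 0, 4, 1, 0 and 0 of 6 libraries correlated best with their own number. Whether same-numbered libraries share an effect in the comparisons with control_EV was not tested. With the replicate number as a block, 209 rows were called for LPS_EV against control_EV, Flnc among them (-0.16, adjusted p = 0.00777), 3 for IL10_EV against control_EV and 2 for LPS_EV against TGFB_EV; Flnc in LPS_EV against IL10_EV changed sign at 0.00.

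Leaving out 1 library gave 18 to 127 calls for LPS_EV against control_EV (53 without control_EV replicate 1, 27 without LPS_EV replicate 2, 18 without LPS_EV replicate 3), 0 to 419 for TGFB_EV (419 without its replicate 3) and 0 to 2 for IL10_EV. It gave 0 to 134, 0 to 3 and 0 to 1 for the pairs of treatments. Vim ranged from -0.12 to 0.06, -0.44 to -0.07 and -0.26 to 0.02 against control_EV for LPS_EV, TGFB_EV and IL10_EV, and from 0.02 to 0.38, -0.07 to 0.20 and -0.34 to 0.03 in the pairs. It changed sign without control_EV replicate 2 (0.06 for LPS_EV, 0.01 for IL10_EV), without IL10_EV replicate 3 (0.02 against control_EV, -0.07 for LPS_EV against IL10_EV), without IL10_EV replicate 1 (0.00 in that pair), and without TGFB_EV replicate 2 (0.02) or IL10_EV replicate 2 (0.03) for TGFB_EV against IL10_EV. Flnc ranged from -0.19 to -0.15, 0.12 to 0.19 and -0.21 to -0.08, then -0.37 to -0.29, -0.09 to 0.05 and 0.23 to 0.37, with changes of sign in LPS_EV against IL10_EV at 0.02, 0.03 and 0.05. Zyx ranged from -0.47 to -0.34, 0.01 to 0.13 and -0.36 to -0.11, then -0.53 to -0.43, -0.30 to -0.04 and 0.19 to 0.44, with no change of sign.

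With group means removed the r of Vim moved to -0.71 (Flnc) and -0.61 (Zyx). In 24 checks of the group levels under other scalings, none moved by 1 SD. Displacements fitted with a change penalty of 10 or 30 or without ribosomal protein genes, chosen after seeing the data as was leaving out both libraries that stood apart, gave the same values in 8 of 9 cases, and -22600 bp for the Zyx row at a penalty of 10.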
